A study of Mus musculus with 2 samples.

Results

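The TGF-β and activin genes of a healing tibial fracture were followed through 2 Visium sections of the callus. They were chosen by symbol and are 10 of the 19430 genes in the count tables, namely the ligands Tgfb1, Tgfb2, Tgfb3 and Inhba, the receptors Tgfbr1, Tgfbr2 and Tgfbr3, the latency genes Ltbp1 and Ltbp2, and the activin antagonist Fst. The sections came from 1 block holding the distal tibia callus of 1 control mouse (Postn-cre-;Nf1+/fl) and 1 Nf1Postn mouse (Postn-cre;Nf1 flox/-), female littermates of 8 weeks whose calluses were taken at 10 days of healing and embedded after formalin fixation and decalcification. The control carried 1 floxed Nf1 allele and no Cre, whereas the Nf1Postn mouse lacked 1 Nf1 allele in every cell and lost the other wherever the periostin promoter drove Cre, chiefly in periosteal cells and their descendants. The labels number the sections as biological replicates, but both hold tissue of the same mice, so genotype and mouse cannot be told apart, and values are given without a test.

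TGF-β ligands are secreted in an inactive form, held by their own propeptide and tethered to the matrix by latent TGF-β binding proteins until proteases or integrins release them. The freed ligand brings together the type II receptor TGFBR2 and the type I receptor TGFBR1, which then phosphorylates SMAD2 and SMAD3, and betaglycan (Tgfbr3) presents ligand to this pair. Activin A, a dimer of the Inhba product, uses other receptors to reach the same SMADs and is trapped by follistatin (Fst). In bone the matrix stores latent TGF-β that resorbing osteoclasts set free, and in cartilage the pathway is known for holding back terminal maturation of chondrocytes.

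In this method pairs of gene-specific probes are counted as unique molecular identifiers (UMIs) in barcoded spots that lie 100 μm apart, each of which samples a mixture of neighboring cells. Levels are pooled CPM, the UMIs of a gene summed over a group of spots and scaled to the total of that group, and exact Poisson 95% intervals are given in brackets. These intervals cover counting error only. Since each gene has its own probes, levels were compared within a gene and not between genes. Fewer cells of a type and less RNA per cell cannot be told apart in a spot. Control tissue covered 1700 and 1778 spots in sections 1 and 2 with medians of 7053 and 5718.5 UMIs, and Nf1Postn tissue 1341 and 1556 spots with medians of 2030 and 3239.75 UMIs. The sections have 2711 array positions under tissue in common, which use the same barcodes. Whether the Nf1 probes lie in the deleted part is not stated, and Nf1 stood at 87.8 and 79.0 CPM in the control sections and at 65.6 and 49.6 CPM in the Nf1Postn sections.

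Clustering of all spots, without the members and other pathway genes, gave 14 regions, which are called here by a leading gene. In the control callus, 11 regions held at least 10 spots in each section. Cartilage fell into 2 of them, the Col10a1 region, led by Col10a1, Ihh, Snorc and Col2a1, genes of prehypertrophic and hypertrophic chondrocytes among them, and the Ucma region, led by Ucma, Scrg1 and Cnmd. The Acp5 region was led by the osteoclast genes Acp5, Siglec15, Mmp9 and Ocstamp. Among its highest ranked genes were 6 osteoclast, 4 osteoblast and 4 osteocyte markers, with Dmp1 counted for both bone cell types. Phex is on both of these marker lists as well. The Lrrc15 region was led by Gpnmb, Lrrc15, Fbn2, Il1rn and Mmp3, and the Mmp3 region by Mmp3, Gpnmb and Zbp1. The Prg4 region was led by Prg4, Adipoq and Cfd. The Angptl7 region was led by Angptl7, Cilp2, Mepe, Myoc and Sost, and its control spots had a median of 1107 UMIs. Its 10 highest ranked genes held 3 tendon markers (Thbs4, Cilp2 and Angptl7), 2 osteocyte markers (Mepe and Sost) and 1 erythroid marker. The Cadm4 region was led by Cadm4, Gap43 and Lgi4, and the Retnla region by Retnla, hemoglobin genes and Ache. The regenerating muscle marker Myog was among the highest ranked genes of the Retnla region. Muscle genes led the Myh7, Myh8 and Perm1 regions, with the embryonic myosin Myh3 in the Myh8 region.

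**Figure D1:**
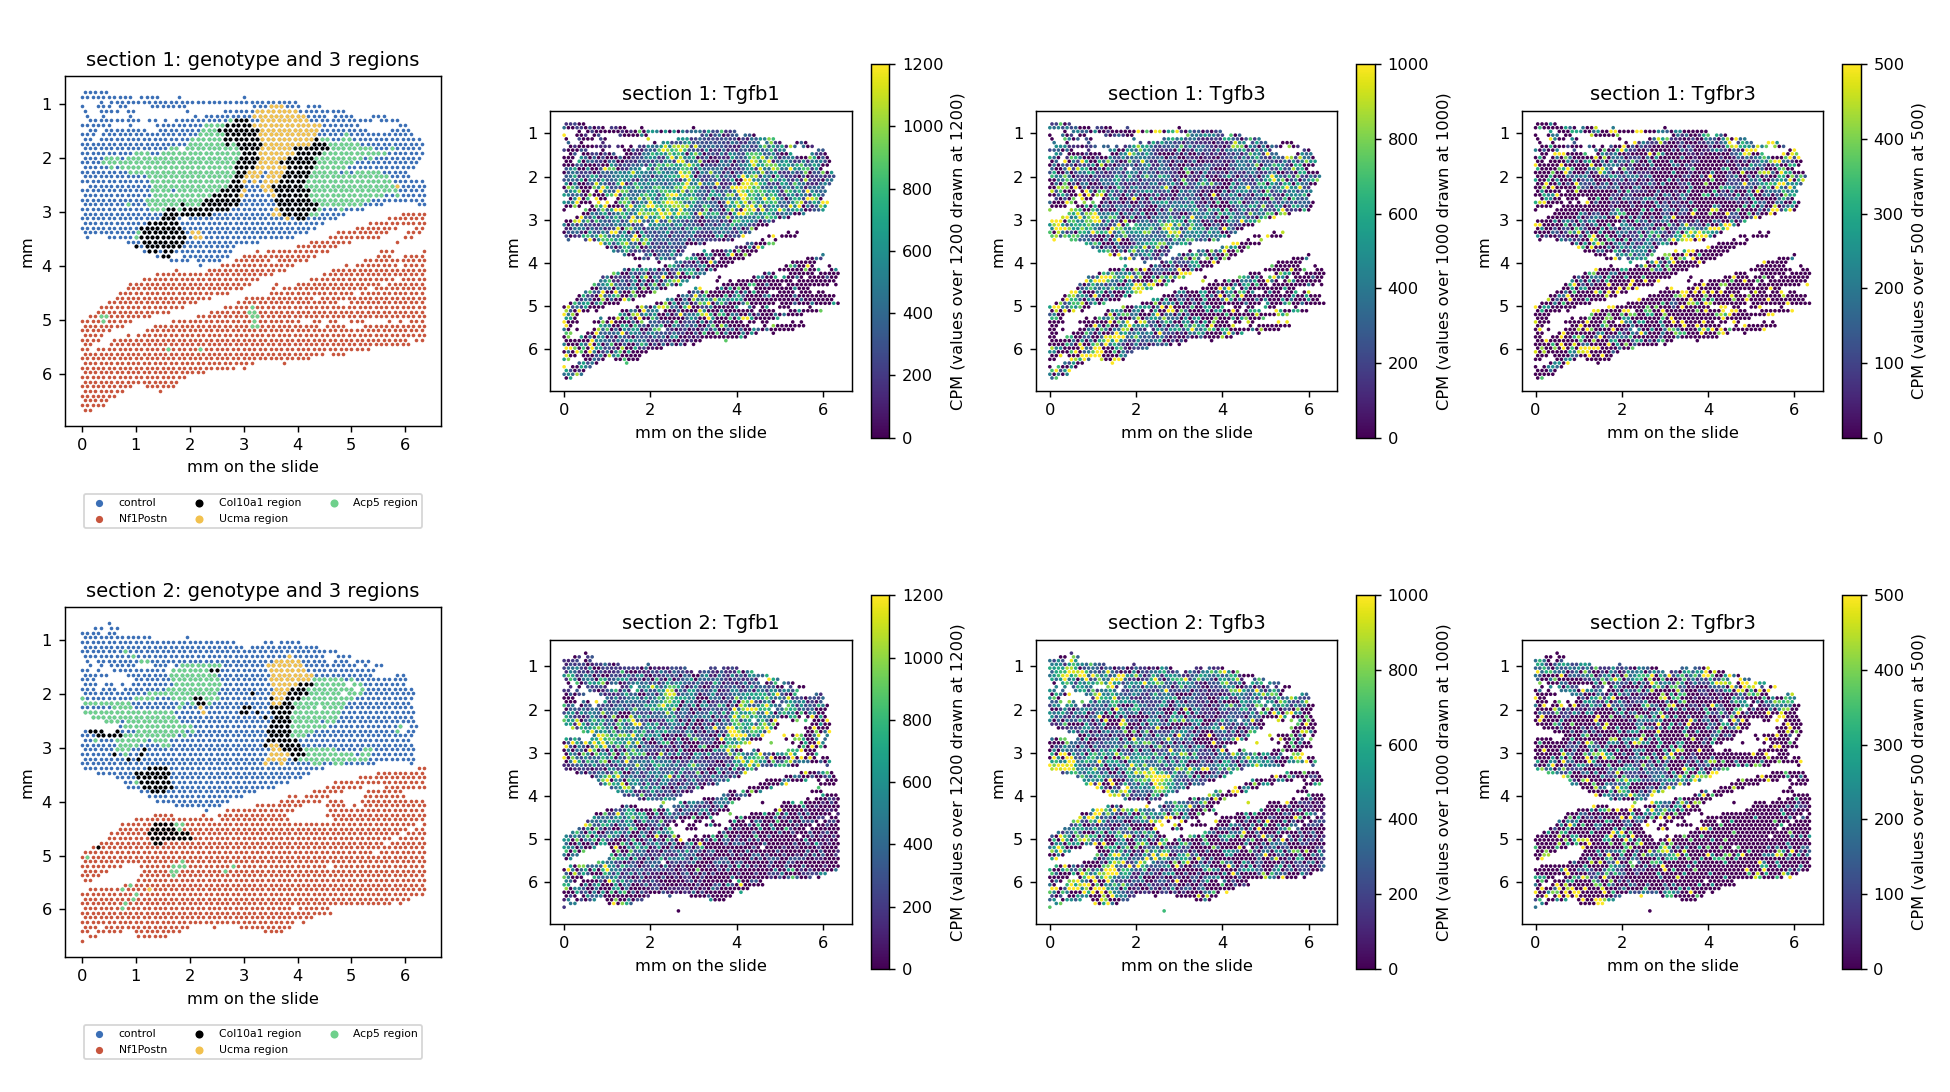
Spots of sections 1 (top) and 2 (bottom) at their position in mm on the slide, colored by genotype with the Col10a1, Ucma and Acp5 regions overlaid (left) and by the CPM of Tgfb1, Tgfb3 and Tgfbr3 in each spot (right), with spots under 1000 UMIs left out of the gene panels and the color scales capped as labeled. In the control callus Tgfb1 was brightest where the Col10a1 and Acp5 regions lie, at 608 and 639 CPM over these regions.

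Tgfb1 (chr7:25386427-25404503, mm39), the main TGF-β of bone matrix, was highest in the Acp5 region, which holds osteoclast, osteoblast and osteocyte markers, and in the Col10a1 region. In the control callus it reached 639 CPM [620 to 659] in the Acp5 region (633 in section 1, 649 in section 2) and 608 CPM [571 to 647] in the Col10a1 region (642 and 528). The intervals of these regions overlap, and both lie above all other control regions, of which the Angptl7 region came next with 455 CPM [383 to 536]. The Ucma region, also cartilage, held 321 CPM [301 to 342], and the lowest level was 98.3 CPM [73.2 to 129] in the Myh7 region, 6.50-fold below the Acp5 region. The gene with the most similar pattern over the 40 groups of region, section and genotype with at least 20 spots was Sparc, which encodes the bone matrix protein osteonectin (Pearson r = 0.90), followed by Eva1b and Mbd2 (both r = 0.90). These groups share sections, mice and depth, so the correlations are a description.

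Tgfb3 (chr12:86103519-86125816) had another order. It was highest in the Lrrc15 region with 485 CPM [467 to 504], in the Angptl7 region with 468 CPM [395 to 550] and in the Prg4 region with 434 CPM [415 to 455], of which the Angptl7 value rests on 145 UMIs and differed between sections (642 and 371). The cartilage regions were near the bottom, with 234 CPM [212 to 259] in the Col10a1 region and 197 CPM [182 to 214] in the Ucma region. Genes most like Tgfb3 were Mxra8 (r = 0.87), Ctsb (r = 0.82) and Igfbp4 (r = 0.82).

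Tgfb2 (chr1:186354989-186438187) was detected in 1224 control UMIs and was highest in the Lrrc15 region with 70.0 CPM [63.3 to 77.2] and the Ucma region with 63.6 CPM [54.9 to 73.3], whose intervals overlap. In the Acp5 region, where Tgfb1 was highest, Tgfb2 was at 26.3 CPM [22.5 to 30.6]. Its closest genes were Ncs1 (r = 0.88), Rtkn (r = 0.88) and Laptm4b (r = 0.87).

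The promoters of Tgfb1 and Tgfb2, shown because these ligands were high in different regions, differ in composition. RefSeq windows of 250 bases before to 50 bases after the gene start (GRCm38.p6) were held for 7 of the 10 genes, and each window was searched on both strands for the GC box GGGCGG, the TATA box TATAAA, the SMAD-binding sequence CAGAC and the AP-1 sequence TGANTCA. Capitals mark the matches, none of which overlap, in the Tgfb1 window (chr7:25686752-25687051, plus strand) and the Tgfb2 window (chr1:186705940-186706239, minus strand).
Tgfb1: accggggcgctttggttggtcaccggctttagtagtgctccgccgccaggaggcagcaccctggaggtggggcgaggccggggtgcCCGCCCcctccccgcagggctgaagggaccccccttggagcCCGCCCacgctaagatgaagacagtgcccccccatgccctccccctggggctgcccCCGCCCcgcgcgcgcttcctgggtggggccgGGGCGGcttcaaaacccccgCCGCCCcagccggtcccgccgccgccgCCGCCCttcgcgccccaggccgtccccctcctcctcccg
Tgfb2: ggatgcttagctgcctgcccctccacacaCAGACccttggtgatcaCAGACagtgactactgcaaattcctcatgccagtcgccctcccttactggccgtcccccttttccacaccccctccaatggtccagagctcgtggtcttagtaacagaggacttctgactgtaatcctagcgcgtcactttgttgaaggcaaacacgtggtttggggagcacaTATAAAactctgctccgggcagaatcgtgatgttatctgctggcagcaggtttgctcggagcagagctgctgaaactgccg
The Tgfb1 window was 77% G and C and held 6 GC boxes and 0 matches of the other motifs, whereas the Tgfb2 window was 54.3% G and C and held 1 TATA box, 2 SMAD-binding sequences and 0 GC boxes. Among all 32851 windows in the table, 35.7% held a GC box, 13.6% a TATA box, 49.6% a SMAD-binding sequence and 7.81% an AP-1 sequence.

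Inhba (chr13:16186436-16206207), the activin A subunit, was detected in few spots, with 61 UMIs in 55 of 3478 control spots and 16 UMIs in 14 of 2897 Nf1Postn spots. Of the control UMIs, 23 lay in the Ucma region (7.66 CPM [4.86 to 11.5], 7.16 and 8.82 by section) and 24 in the Lrrc15 region (4.20 CPM [2.69 to 6.25]). The Col10a1 region held 1 UMI over 382 spots (0.605 CPM [0.0153 to 3.37]). Fst (chr13:114588826-114595488), the activin antagonist, was also high there, with 133 CPM [120 to 146] in the Ucma region and 130 CPM [120 to 139] in the Lrrc15 region, as well as in the Prg4 region with 126 CPM [116 to 138]. It was lowest in the Acp5 region with 43.5 CPM [38.5 to 48.9] and in the Myh7 region with 42.4 CPM [26.6 to 64.2]. Igf1 (r = 0.90), Fstl1 (r = 0.90), which encodes a follistatin-like protein, and Sfrp1 (r = 0.89) had the patterns most like Fst, whose level also followed the UMIs per spot (r = 0.66).

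The type II receptor Tgfbr2 (chr9:115913361-116004429) had 395 CPM [379 to 412] in the Lrrc15 region, 377 CPM [359 to 396] in the Prg4 region and 332 CPM [318 to 347] in the Acp5 region, but 252 CPM [229 to 278] and 189 CPM [174 to 205] in the Col10a1 and Ucma regions. The type I receptor Tgfbr1 (chr4:47353222-47414932) was highest in the Angptl7 region with 106 CPM [73.3 to 150], on 33 UMIs. It had 92.7 CPM [85.4 to 100.5] in the Acp5 region, 3.20-fold above the Ucma region with 29.0 CPM [23.2 to 35.7]. The interval of the Cadm4 region, at 86.3 CPM [62.9 to 115], overlaps those of the Angptl7 and Acp5 regions. The pattern of Tgfbr1 was closest to that of Pdgfrb, the PDGF receptor of mesenchymal and mural cells (r = 0.92). Betaglycan, Tgfbr3 (chr5:107254436-107437496), was highest in the Prg4 region, which was led by Prg4 and the adipocyte markers Adipoq and Cfd. It had 216 CPM [202 to 230] there (228 and 206 by section), against 141 CPM [132 to 151] in the Lrrc15 region and 47.6 CPM [40.1 to 56.1] in the Ucma region. It was most like Cd81 (r = 0.89), Steap4 (r = 0.85) and Jcad (r = 0.84). Each receptor had its lowest levels outside the regions led by muscle genes in the Ucma and Col10a1 regions.

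The latency genes had different orders. Ltbp2 (chr12:84829986-84923307), a microfibril protein that unlike its relatives does not bind latent TGF-β, ranged from 97.0 CPM [89.1 to 105] in the Lrrc15 region (84.8 and 112 by section) to 18.7 CPM [15.5 to 22.4] in the Acp5 region and 7.71 CPM [2.10 to 19.7] in the Myh7 region, a 12.6-fold span. Ltbp1 (chr17:75312563-75699508), which tethers latent TGF-β to the matrix, was highest in the Angptl7 region with 90.3 CPM [60.02 to 131], on 28 UMIs and with 154 and 55.2 CPM by section, and had 85.1 CPM [77.7 to 93.0] in the Lrrc15 region, 84.6 CPM [74.5 to 95.7] in the Ucma region and 74.8 CPM [68.3 to 81.8] in the Acp5 region. In the Col10a1 region, where Tgfb1 was high, Ltbp1 was at 45.4 CPM [35.7 to 56.9].

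**Figure D2:**
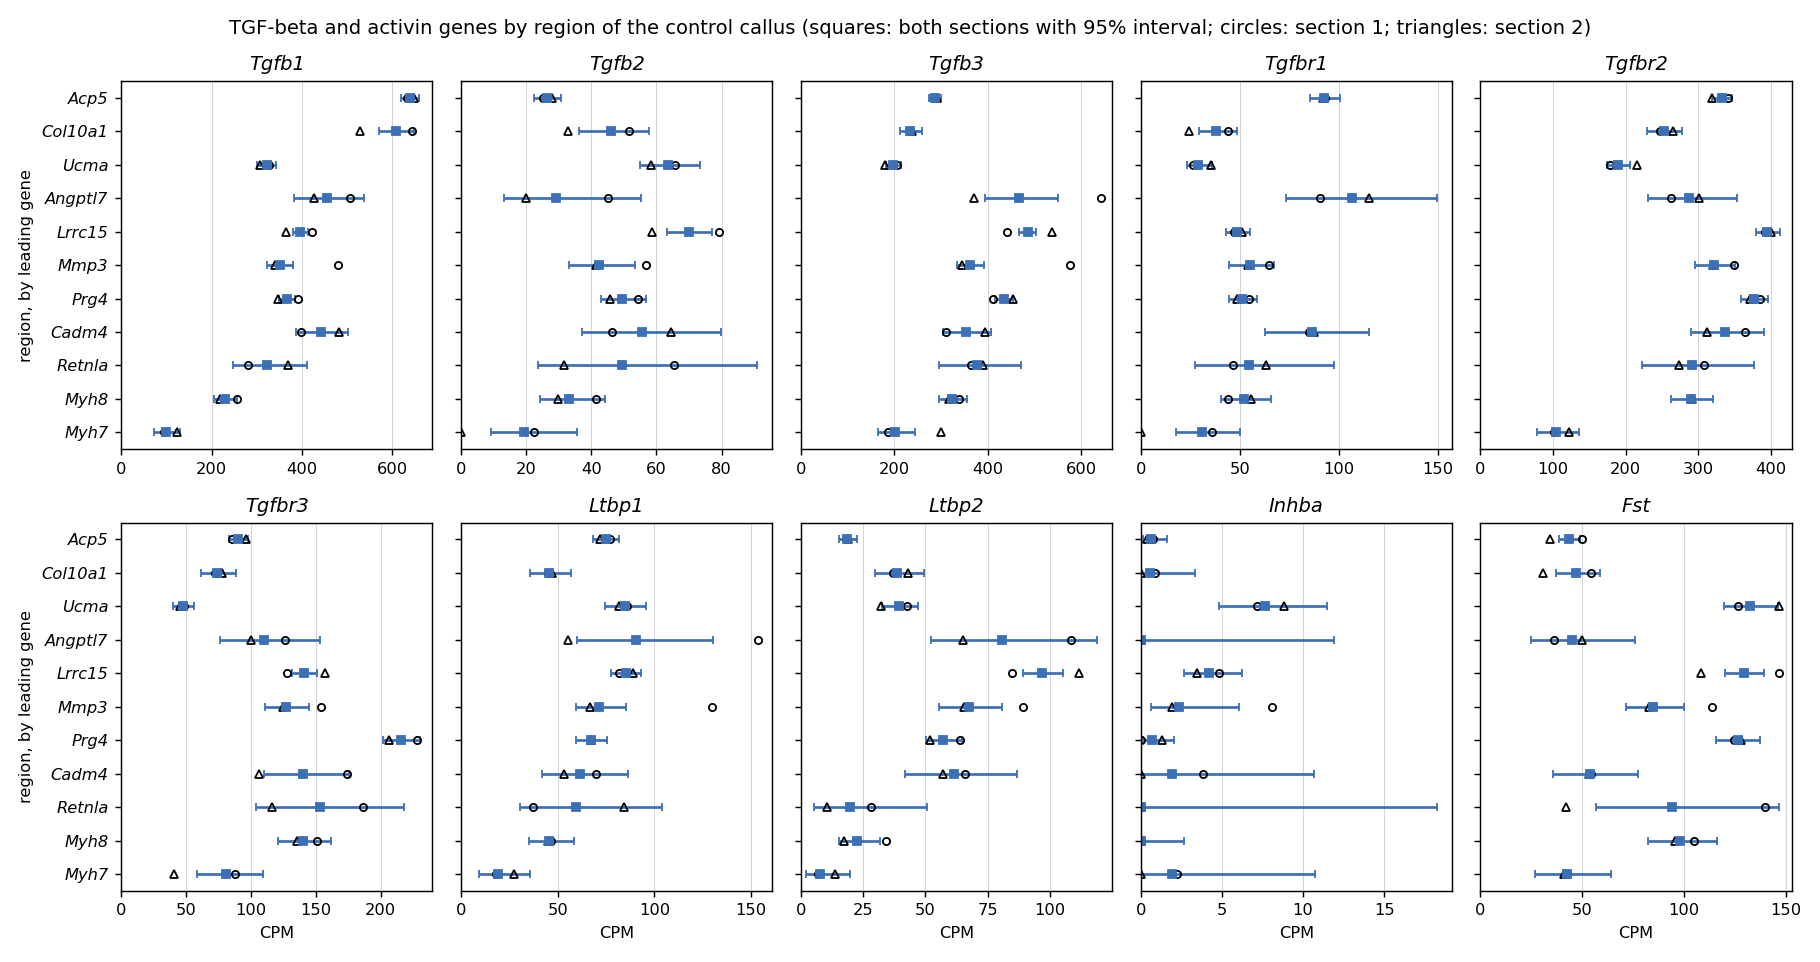
Pooled CPM of each gene (horizontal axis, starting at 0) in 11 regions of the control callus, with squares and 95% counting intervals for both sections together, circles for section 1 and triangles for section 2. Tgfb1 has its highest values in the Acp5 and Col10a1 regions, Tgfbr3 in the Prg4 region and Inhba in the Ucma region.

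To ask where the genes stand relative to hypertrophic cartilage, the 382 control spots of the Col10a1 region were set against all other control spots. A gene was called when it differed at least 2-fold the same way in both sections, and held 20 UMIs or more in each. Of the 10 genes 0 were called higher, where the share of all 12562 genes was 0.804%, and 0 were called lower, where it was 3.15%. Fst came nearest at 47.2 against 96.4 CPM, 2.04-fold lower over both sections (log2 ratios of -0.91 and -1.57), and Tgfb1 was 1.42-fold higher (0.52 and 0.38). The median log2 ratio was -0.64 over the 10 genes and -0.32 over all genes. Tgfbr1 (-1.31) and Fst passed 2-fold lower in section 2 alone. Inhba, with 1 UMI in the region, passed in section 1 (-1.76). In section 2 the region held 0 of the 24 control UMIs of Inhba. The 3 counts given to a group at 0 put the region above the other spots, so no ratio was taken and Inhba could not be called.

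A direct comparison of the cartilage regions, added after their values were seen, separated them further. Fst was 2.81-fold lower in the Col10a1 than in the Ucma region (log2 ratio -1.49 [-1.86 to -1.14], -1.22 and -2.26 by section), and it was the 1 gene of 9 called lower, where 2.02% of 7680 genes were. None of the 9 was called higher, where 3.54% were, but Tgfb1 was 1.89-fold higher (0.92 [0.79 to 1.05], 0.97 and 0.78) and Tgfbr3 1.55-fold higher (0.63 [0.27 to 0.99]). Ltbp1 was 1.86-fold lower (-0.90 [-1.29 to -0.52], -0.94 and -0.79). After thinning to 1000 UMIs per spot Fst was 1.97-fold lower (-0.37 and -2.34 by section) and had too few UMIs for a call, 15 in section 2. Inhba, with 1 against 23 UMIs, had too few UMIs for a call.

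With distance from the Col10a1 region, measured in the control callus to its nearest spot, Tgfb1 was lower and Tgfbr3 higher at each step. Tgfb1 was at 608 CPM in the region, 522 at up to 300 μm, 409 at 300 to 600 μm, 382 at 600 to 1000 μm and 311 beyond, over 382, 917, 757, 708 and 714 spots. Section 1 went from 642 to 319 CPM and section 2 from 528 to 302 CPM, and only the step from 600 μm in section 1, 411 to 419 CPM, ran the other way. Tgfbr3 was at 73.9, 92.8, 133, 142 and 169 CPM over the same steps, with 72.2 to 170 CPM in section 1 and 77.7 to 169 CPM in section 2. Beyond 1000 μm Tgfbr3 was 2.29-fold above the Col10a1 region (log2 ratio 1.2 [0.92 to 1.49], 1.23 and 1.12 by section). It was the 1 gene of 9 called higher, where 10.1% of 9782 genes were, so this count is near the share of all genes. Of the 9 genes 0 were called lower, where 1.99% were. How many of all genes rose or fell at each step was not counted. With far set at over 600 μm Tgfbr3 was 2.07-fold higher and missed 2-fold narrowly in section 2 (log2 ratios of 1.05 and 0.996), and at a clustering resolution of 0.3 it was 1.91-fold higher (1.12 and 0.67), so neither setting called it. Tgfb1 was 1.95-fold lower beyond 1000 μm (-0.97 [-1.09 to -0.84]), past 2-fold in section 1 (-1.01) but not in section 2 (-0.80).

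Over both sections, all members but Tgfb1 and Tgfbr3 were highest at a step between these ends. In section 2 alone Tgfb2, Tgfb3 and Fst were highest beyond 1000 μm, at 51.9, 456 and 116 CPM. Inhba was at 0.605 CPM in the Col10a1 region, 3.94 CPM [2.71 to 5.53] within 300 μm, 2.72 and 1.46 CPM in the next steps and 0.281 CPM beyond 1000 μm, and both sections followed this order from 300 μm outward. Ltbp1 was at 45.4, 73.9, 81.7, 77.8 and 52.8 CPM. At 600 to 1000 μm Tgfbr2 peaked at 384 CPM, also in each section. Tgfbr1 was at 64.1 CPM there and at 63.9 CPM at 300 to 600 μm, where section 2 was highest. Ltbp2 peaked at 59.0 CPM at 600 to 1000 μm, but only through section 2 (78.9 CPM). In section 1 this was the lowest step of Ltbp2 (30.1 CPM), and its highest was within 300 μm (61.6 CPM). Fst peaked at 105 CPM at 300 to 600 μm, and Tgfb2 at 58.0 CPM within 300 μm. Tgfb3 was at 234 CPM in the region, 400 CPM at 600 to 1000 μm and 370.4 CPM [351 to 391] beyond 1000 μm. Beyond 1000 μm its sections parted at 296 and 456 CPM. The make-up of the steps differed as well, with Acp5 region spots commonest over both sections within 300 μm and Prg4 and Angptl7 region spots beyond 1000 μm, and the median depth was 8784 UMIs within 300 μm and 4175 UMIs beyond 1000 μm. The part of depth and make-up in these profiles was not tested.

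**Figure D3:**
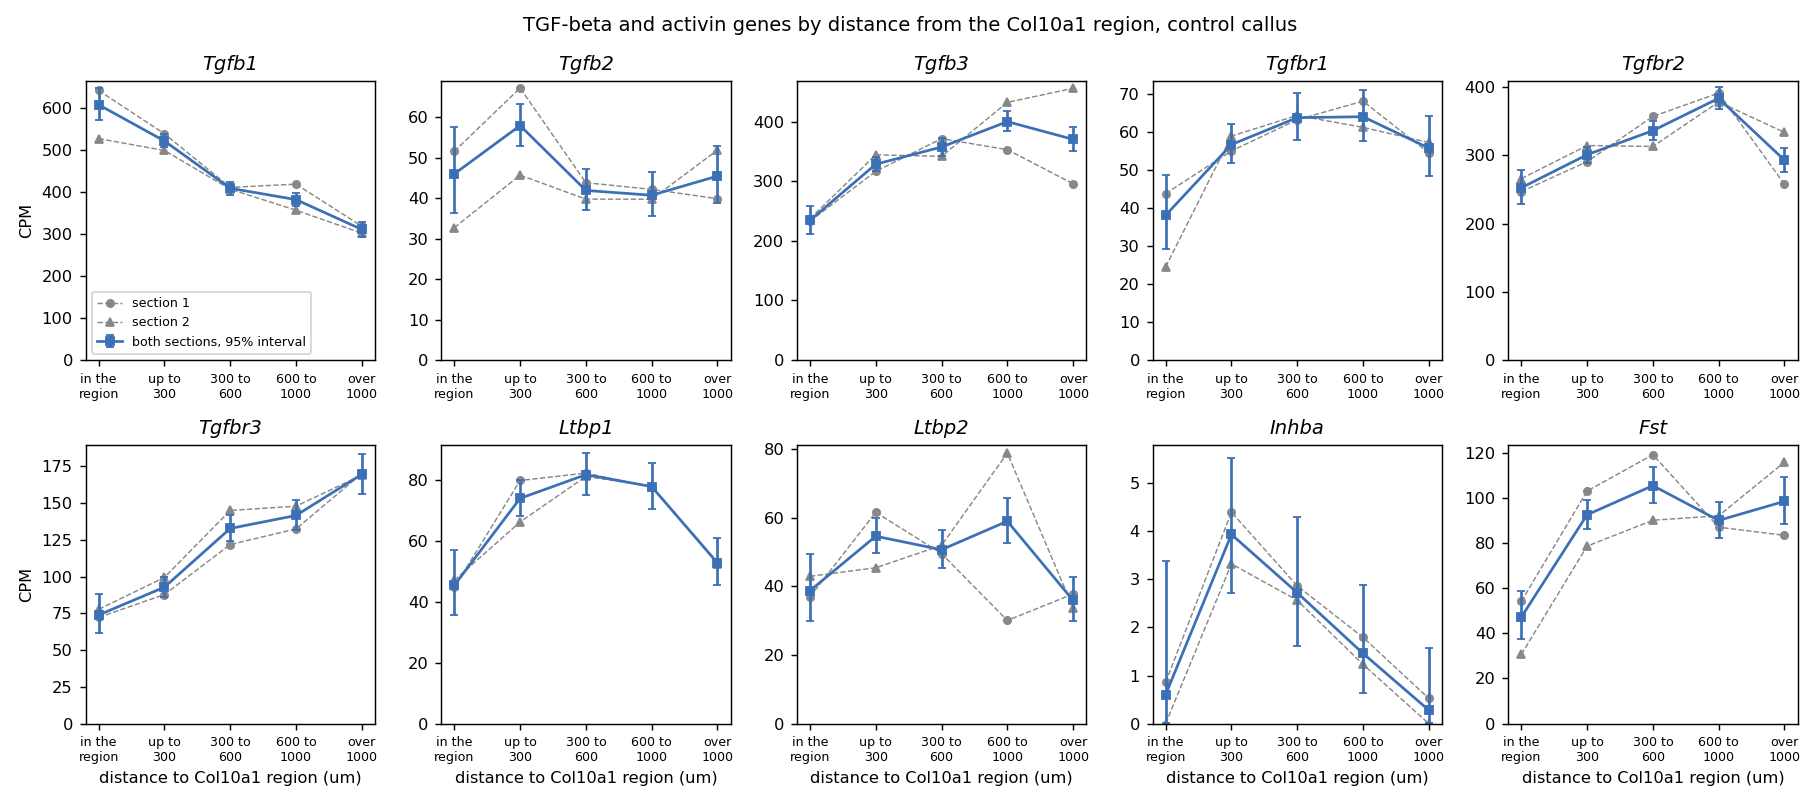
Pooled CPM (vertical axis, starting at 0) of each gene in control spots grouped by distance in μm to the nearest spot of the Col10a1 region, with squares and 95% counting intervals for both sections and gray symbols for single sections. Tgfb1 is lower and Tgfbr3 higher away from the region, and Inhba is highest within 300 μm of it.

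Between the calluses, no member reached the 2-fold rule. Of the 10 genes 0 were called higher in Nf1Postn, where 5.79% of 13410 genes were, and 0 lower, where 1.5% were, and the median log2 ratio was -0.45 over the 10 genes and -0.05 over all genes. Tgfb1 was at 464 and 412 CPM in the control sections and at 298 and 215 CPM in the Nf1Postn sections. It was 1.79-fold lower in Nf1Postn (log2 ratio -0.84 [-0.91 to -0.78], -0.64 and -0.94 by section). Ltbp2 was at 47.9 and 54.4 CPM in control and at 34.7 and 21.9 CPM in Nf1Postn, 1.92-fold lower (-0.94 [-1.14 to -0.74]), and passed 2-fold in section 2 alone (-1.31, against -0.47 in section 1). Ltbp1 was at 73.3 and 70.5 CPM against 53.7 and 39.9 CPM, 1.60-fold lower (-0.68 [-0.83 to -0.53]). Tgfbr2 was at 316 and 332 CPM against 268 and 195 CPM, 1.46-fold lower (-0.54 [-0.61 to -0.47]), and Tgfbr1 at 58.3 and 59.4 CPM against 49.4 and 41.3 CPM, 1.33-fold lower (-0.41 [-0.57 to -0.25]). Within each section Tgfb1, Ltbp1, Ltbp2, Tgfbr1, Tgfbr2, Fst and Inhba were below control. For Tgfb1, Ltbp1, Ltbp2, Tgfbr1 and Tgfbr2 both Nf1Postn values also lay below both control values. How many of all genes did either was not counted, so this is a description only. Fst was at 97.6 and 88.3 CPM against 91.8 and 59.5 CPM, and Inhba at 2.73 and 1.98 CPM against 2.02 and 1.5 CPM, with a log2 ratio of -0.49 [-1.38 to 0.32]. Fst and Inhba overlapped between the genotypes, with section 1 of Nf1Postn above section 2 of control. Tgfb2 (51.9 and 42.9 CPM against 50.8 and 53.6), Tgfb3 (327 and 378 against 358 and 303) and Tgfbr3 (114 and 133 against 126 and 101) overlapped as well.

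Spots led by muscle genes were a larger share of the Nf1Postn tissue, and Tgfb1, Tgfb2, Tgfbr2, Ltbp1 and Ltbp2 had their lowest pooled control level in the Myh7 region. Fst was at 42.4 CPM there and at 43.5 CPM in the Acp5 region. Its lowest region was Angptl7 in section 1 (36.2 CPM) and Col10a1 in section 2 (30.7 CPM). Spots of the Myh7, Myh8 and Perm1 regions made up 8.05% of control and 35.2% of Nf1Postn spots. They held 7.42% of control and 45.6% of Nf1Postn UMIs, the latter 26.9% in section 1 and 56.3% in section 2. The 8 skeletal muscle markers, all detected, summed to 13465 and 21920 CPM in the control and 63200 and 109383 CPM in the Nf1Postn sections. The 10 cartilage markers, all detected, summed to 49913 and 31453 CPM in control and 4739 and 8985 CPM in Nf1Postn. The Acp5 region, where Tgfb1 was highest, held 25.0% of control and 2.22% of Nf1Postn UMIs, and the 9 osteoclast markers summed to 7667 and 6421 CPM in control and 3647 and 1636 CPM in Nf1Postn. Erythroid markers, 5 detected of 6 listed, summed to 163 and 293 CPM in control and 1844 and 1660 CPM in Nf1Postn. Without the regions led by muscle genes, a setting chosen after seeing the data, Tgfb1 was 1.34-fold lower (-0.42 [-0.50 to -0.35]) and Ltbp2 1.36-fold lower (-0.44 [-0.66 to -0.22]). Tgfbr2 and Tgfbr1 were at -0.15 and -0.05, and Fst was at 93.7 against 94.0 CPM. Tgfb3 was higher in Nf1Postn (0.24 [0.17 to 0.31], 0.30 and 0.18 by section). Tgfb2 was at 0.46 [0.29 to 0.64], mostly through section 2 (0.83, against 0.07 in section 1). The Retnla region, with 73 control and 415 Nf1Postn spots and Myog among its highest ranked genes, was kept here. These ratios are therefore not free of muscle genes. With equal weight to each compared region, Tgfb1 was at -0.17 and Ltbp2 at -0.20. The part of the cartilage, osteoclast and erythroid differences in the genotype ratios was not tested.

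**Figure D4:**
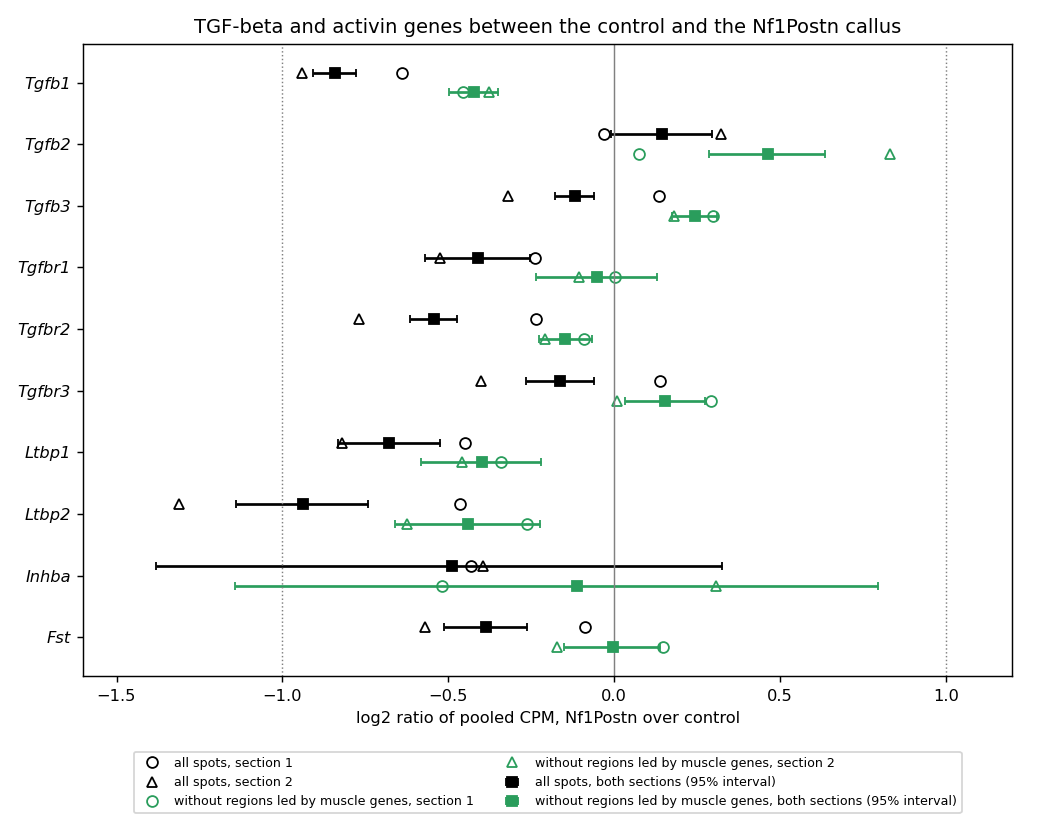
Log2 ratio of pooled CPM, Nf1Postn over control (horizontal axis, dotted lines at 2-fold), for each gene in all spots (black) and without the regions led by muscle genes (green), with squares and 95% counting intervals for both sections, circles for section 1 and triangles for section 2. Tgfb1 moves from -0.84 to -0.42 and Tgfb3 from -0.12 to 0.24 when muscle-led regions are left out.

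Within regions, 9 had enough spots of both genotypes, and 0 of 70 pairs of gene and region were called in either direction, where 0.814% of 58106 pairs over all genes were called higher and 0.928% lower. Tgfb1, in all 9 regions, was lower in both sections in 6 and higher in both in 1, with log2 ratios from -0.64 to 0.13 (median -0.15). In the Acp5 region it was at 577 CPM [479 to 689] in 32 Nf1Postn spots and 639 CPM in 749 control spots. Tgfb2, in 6 regions, was higher in both sections in 4 and lower in both in 0, and Fst, in 8, was higher in both sections in 5 and lower in both in 2. The share of all genes with the same sign in both sections of a region was not counted. In the Acp5 region Tgfb2 was at 57.2 against 26.3 CPM (0.78 and 1.29 by section) and Fst at 95.4 against 43.5 CPM (0.79 and 1.59), on 12 and 20 Nf1Postn UMIs. Tgfb3, in 9 regions, was higher in both sections in 3 and lower in both in 2, with a median log2 ratio of -0.03. It was higher in Nf1Postn in the Prg4 region, at 685 CPM [610 to 766] against 434 CPM (0.95 and 0.33), and in the Lrrc15 region, at 717 CPM [649 to 790] against 485 CPM (0.63 and 0.45), and lower in the Myh8 region (-0.29 and -0.23) and the Retnla region (-0.04 and -0.38). Fst was 1.60-fold lower in the Myh8 region (-0.68 [-1.07 to -0.30], -0.83 and -0.61 by section).

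**Figure D5:**
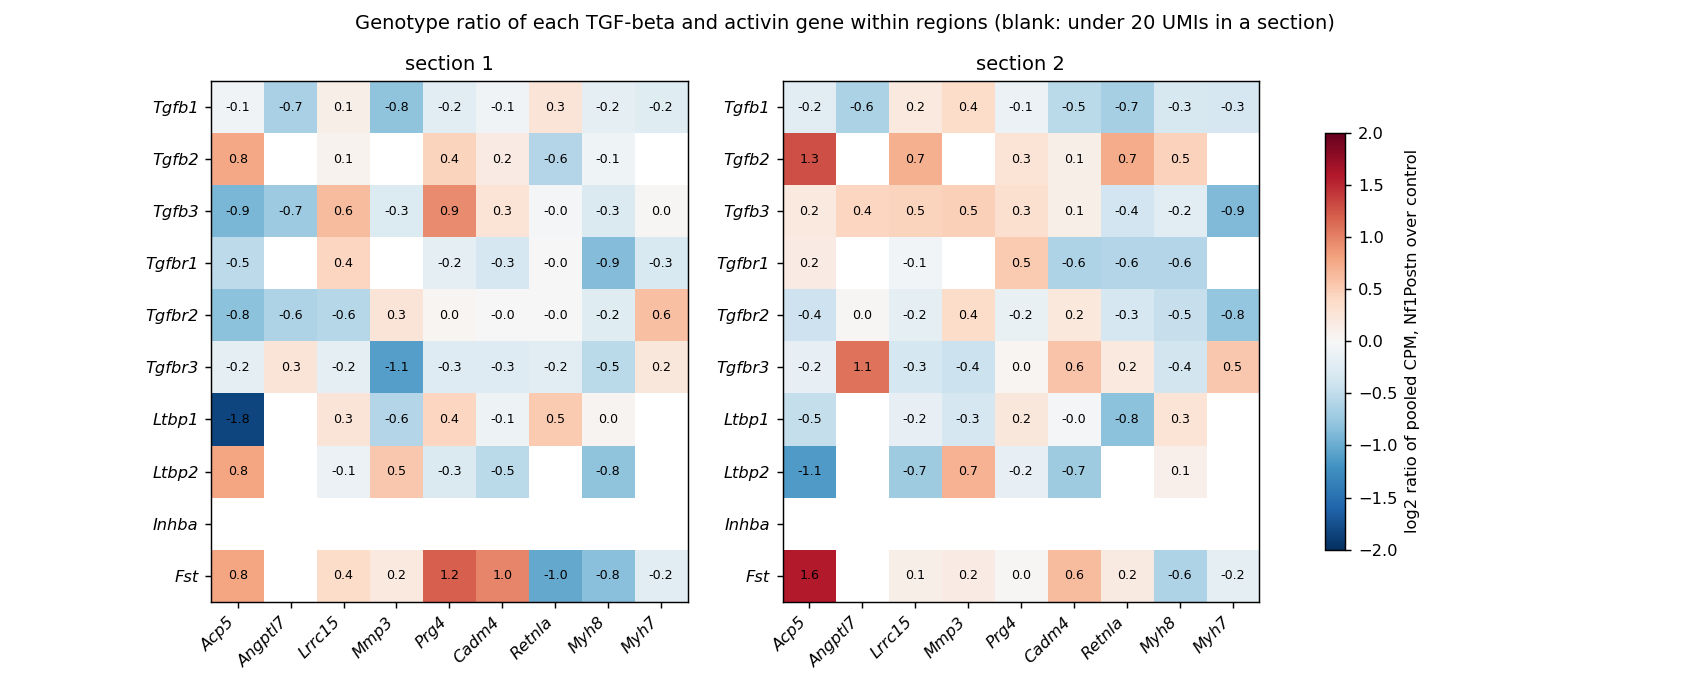
Log2 ratio of pooled CPM, Nf1Postn over control, of each gene (rows) within 9 regions (columns, by leading gene) in section 1 (left) and section 2 (right), drawn on a scale from -2 to 2, with blanks where a section had under 20 UMIs over both genotypes, and for Tgfbr1 in the Myh7 region of section 2, where control had 0 UMIs. Tgfb2 and Fst are above 0 in the Acp5 region of both sections, and no gene passes 2-fold the same way in both panels.

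Tgfb2 was higher in a few Nf1Postn cartilage spots than in control ones. In section 2, 28 Nf1Postn spots fell into the Col10a1 region, with a median of 5925.5 UMIs, against 0 in section 1 and 123 control spots in section 2, with a median of 3548 UMIs. These values rest on 1 section and were singled out after being seen. Cartilage markers there summed to 154423 CPM in Nf1Postn and 172654 CPM in control, and the 9 osteoclast markers to 1279 and 6816 CPM. Tgfb2 stood at 272 CPM [197 to 365] in the Nf1Postn spots, with 44 UMIs in 19 of 28 spots and at most 6 in a spot, and at 32.7 CPM in the control spots, with 16 UMIs in 14 of 123 spots. Control spots of this region in section 1 were higher, at 51.6 CPM on 60 UMIs, and control was at 46.0 CPM over both sections. Against the section 2 control spots the ratio was 8.31-fold [4.59 to 15.8]. It was the largest among 5081 genes with at least 20 UMIs there, a gene without control UMIs being given 3 counts. Of these genes 4.37% were at least 2-fold higher and 9.76% at least 2-fold lower. In the other 1528 Nf1Postn spots of section 2 Tgfb2 was at 47.6 CPM [42.1 to 53.5]. Between the 28 Nf1Postn and 123 control spots of the Col10a1 region, Tgfb1 was at 469 against 528 CPM and Tgfb3 at 222 against 237 CPM. Tgfbr2 was at 154 against 266 CPM (-0.78 [-1.46 to -0.16]) in the same spots.

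Of 72 further pathway genes counted between the calluses, 2 were called higher (2.78%, against 5.79% of all genes) and 5 lower (6.94%, against 1.5% of all genes). The lists were chosen with earlier results of these data known, so their shares and medians are a description only. Of 6 further ligands 1 was called, Mstn, the muscle growth inhibitor myostatin, at 34.0 CPM in Nf1Postn against 6.81 CPM in control. Of 20 genes of latency and activation, the integrin subunit Itgb6 was called higher (23.2 against 4.52 CPM) and the osteoclast protease Mmp9 lower (463 against 1496 CPM). Of 5 further receptors and 9 secreted or matrix inhibitors 0 were called, and of 12 transducers and intracellular inhibitors the pseudoreceptor Bambi was lower (28.3 against 78.0 CPM). Of 20 target genes 3 were lower, the chondrocyte factor Sox9 (86.0 against 476 CPM), the cartilage protein Comp (1751 against 5531 CPM) and the collagen cross-linker Lox (324 against 994 CPM), and 0 higher, with a median log2 ratio of -0.95 over the list and -0.05 over all genes. Between the Col10a1 region and the other control spots, 1 of the 72 genes was called higher (1.39%, against 0.804% of all genes) and 3 lower (4.17%, against 3.15%). Comp was called higher (16911 against 4749 CPM) and Gdf10 (20.6 against 42.3 CPM), Itgb6 and Nox4 lower, the last 2 on 3 and 5 UMIs in the region. Several of the genes called between the calluses mark muscle, cartilage or osteoclasts, whose marker sums differed between the calluses as given above, and the part of these shares in the ratios was not tested.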

How the data were processed

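Visium libraries for formalin-fixed tissue were made from 2 sections of 1 block. Per the labels, reads were processed with Space Ranger 1.3.0 on mm39, and the methods name Partek Flow for export. The authors deposited a table of raw UMIs by gene and spot for either section. These deposited values were handled here like expected counts because entries that join several Ensembl IDs hold a mean and are not whole. The authors also deposited a genotype label and a position for each spot, and how the border was drawn is not stated.

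An entry that names no gene was left out (11.6 and 6.8 UMIs), and 5 of 6380 spots carry no genotype label and entered no comparison. Total UMIs were 13562253.5 and 12122419 in control and 3462224.5 and 5984157 in Nf1Postn, which limits low genes in the latter, and 128 control and 328 Nf1Postn spots had under 1000 UMIs. Regions came from Leiden clustering (leidenalg 0.10.2, resolution 0.5) of log2(CPM + 1), centered per section, on 20 principal components and 15 neighbors, over 16818 of the 16902 genes found in at least 0.3% of spots. Leading genes needed 500 UMIs. Genes were counted with at least 20 UMIs per section, and regions compared with at least 20 spots per genotype and 10 per section. Ratio intervals are exact conditional binomial, and a group at 0 was given 3 counts. The code that makes the calls was run on simulated counts with known fold changes, which checks the code and is no test between genotypes. The alternatives were mean log2(CPM + 1), a depth minimum, thinning, no count minimum, 1.5-fold, single sections, TMM factors, equal region weights, other clusterings and another distance.

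Named were the members, Nf1, called pathway genes, leading genes, and the 3 most similar genes of members with at least 500 UMIs. The members and lists were chosen with earlier results of these data known. Coordinates are those of the GRCm39 annotation, and promoters are from RefSeq. Python 3.11.15, numpy 2.4.6 and scipy 1.17.1 were used.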

Additional observations from a re-analysis of the deposited data

How the results depend on the processing

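Of 86 counts of called genes or pairs under an alternative, 63 equaled the main count or stayed within 1.5 times it. Most of these were counts of 0 that stayed at 0. The main count was above 0 only for genes higher beyond 1000 μm and genes lower in the Col10a1 than in the Ucma region. No gene was called between the calluses with TMM factors, a minimum of 1000 UMIs per spot, thinning to 1000 UMIs, no count minimum, equal region weights or without muscle-led regions. With the mean over spots of log2(CPM + 1), which gives a spot without a UMI the value 0, counts were 8 genes lower in Nf1Postn, 6 lower in the Col10a1 region than in other control spots, 1 lower (Tgfb1) and 1 higher beyond 1000 μm, 5 lower in the Col10a1 than in the Ucma region, and 5 pairs within regions. The paper normalized to log2(CPM + 1) as well, and Nf1Postn spots were shallower. The share of all genes called was not counted under any alternative, so the member counts stand without a background. At 1.5-fold, 1 gene was lower in Nf1Postn (Tgfb1), 3 lower in the Col10a1 region (Tgfbr3, Ltbp1 and Fst), 2 higher (Tgfbr3 and Fst) and 1 lower (Tgfb1) beyond 1000 μm, 1 higher (Tgfb1) and 2 lower (Ltbp1 and Fst) in the Col10a1 than in the Ucma region, and 6 pairs passed within regions. Without a count minimum 2 pairs passed. The 1 gene higher beyond 1000 μm became 0 at resolution 0.3 and 0 at over 600 μm, and the 1 gene lower in the Col10a1 than in the Ucma region became 0 after thinning, where Fst had 15 UMIs in section 2. The cause of the changes under any alternative was not tested.

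With 1 section at a time, the count lower in Nf1Postn ran from 0 to 1 (Ltbp2 in section 2), lower in the Col10a1 region from 1 to 2, higher beyond 1000 μm from 1 to 3 and lower there from 0 to 1 (Tgfb1 in section 1), and pairs within regions from 4 to 6. Over 8 alternatives the genotype log2 ratio kept its sign for Tgfb1 (-3.44 to -0.17), Ltbp1 (-1.59 to -0.26), Ltbp2 (-1.31 to -0.20), Tgfbr1 (-1.20 to -0.05) and Tgfbr2 (-3.06 to -0.13). It had the other sign in 3 for Tgfb3, 2 for Tgfb2, 2 for Tgfbr3, 1 for Fst and 1 for Inhba. No paired analysis was possible because each genotype is 1 mouse.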
